A study of Arabidopsis thaliana with 12 samples.

Results

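The comparison described here sets wild-type Arabidopsis thaliana seedlings of the accession Landsberg erecta (Ler) grown in red light against Ler seedlings grown in the dark. It rests on 6 of the 12 arrays of the series, 3 titled as red-light and long-day treated Ler and 3 titled as etiolated Ler, and the arrays were chosen by these titles alone. All seedlings were 4 days old, grew on agar medium, and gave RNA from their aerial parts. The red-light group had red light of 0.5 µmol m-2 s-1 under long days and the dark group had no light, so the colour of the light, its amount and the day cycle changed together and cannot be told apart. The other 6 arrays, 3 from red light and 3 from the dark, came from atbzip16, a Ler-background mutant whose name refers to the transcription factor bZIP16, and here they supply a common estimate of the spread and 1 closing comparison. Each sample is labelled as total RNA, while the protocol text also describes polysome-bound RNA, and the label was followed.

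A seedling that germinates in the dark lengthens its hypocotyl, keeps its cotyledons closed and holds its plastids as etioplasts, which carry protochlorophyllide and no thylakoid system. Red light is absorbed by phytochromes, which enter the nucleus in their active form and bring about the removal of PIF transcription factors. The seedling then slows hypocotyl growth, opens and greens its cotyledons and builds the photosystems, while the storage protein, the oil and the protective proteins packed into the seed are used up during germination in either condition.

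The 12 arrays had been scaled alike, with median signals between 148.3 and 186.1 and highest signals between 34477 and 51801.3. On the first principal component, with 46.3% of the variance, red light was parted from dark. The second held 17% and parted replicate 1 from replicates 2 and 3 in all 4 groups. Among dark Ler arrays, log2 signals of replicates 2 and 3 correlated at 0.9761 across tested probe sets, and replicate 1 correlated with them at 0.9419 and 0.9412. In red-light Ler arrays these values were 0.9681 for replicates 2 and 3, and 0.9364 and 0.9347 for replicate 1, and between red-light and dark Ler arrays they were 0.8795 to 0.9093. These are descriptions across probe sets of shared arrays. What sets the replicate 1 arrays apart was not tested, and the labels name no day or array batch. Values with replicate number as a block are therefore given for the genes and lists described where a call or a count differs. Values from replicates 2 and 3 only are given for some of these genes and lists. Where they are not given, a call or a count may still differ.

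**Figure D1:**
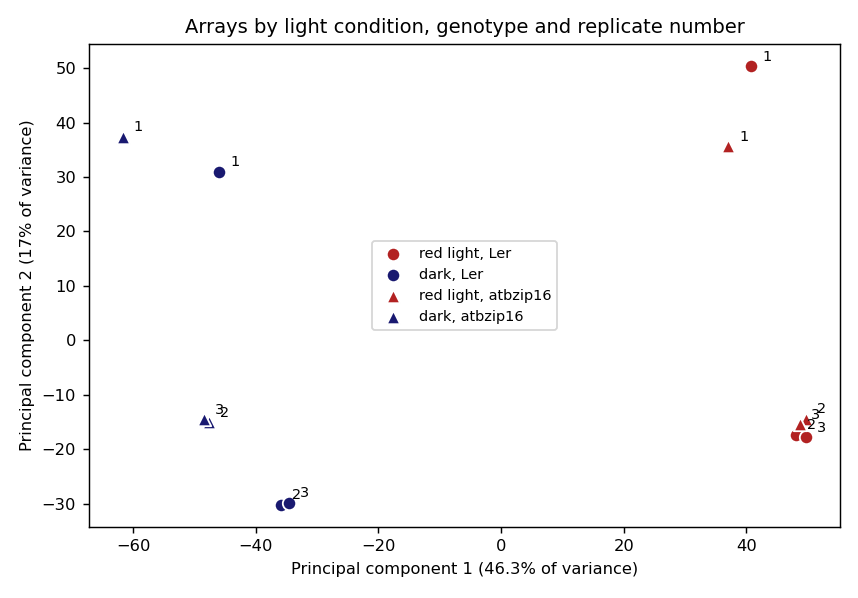
Scores of the 12 arrays on the first 2 principal components of log2 signal, with red-light arrays in red, dark arrays in dark blue, circles for Ler, triangles for atbzip16 and replicate numbers beside the points. Light condition lies along the first axis (46.3% of variance) and the 4 replicate 1 arrays lie apart from the others along the second (17%).

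Of 15922 probe sets with signal above the low-signal limit, limma called 1820 in red-light over dark Ler seedlings at an adjusted p under 0.05, which is 11.4% of those tested, 899 of them higher (5.65%) and 921 lower (5.78%). A change of at least 2-fold was called for 861 (5.41%), with 376 higher and 485 lower in red light, and 959 calls were smaller than 2-fold. The strongest changes lay on the lower side: 101 probe sets fell at least 8-fold and 32 rose at least 8-fold. Of the 101, 52 had a mean red-light signal under 41.6, the limit used for low signal, so that the size of the fall there depends on values near the bottom of the scale. Of the 32, 12 had a mean dark signal under that limit.

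With replicate number as a block, 3761 probe sets were called (23.6%), 1758 higher (11.0%) and 2003 lower (12.6%) in red light, and replicates 2 and 3 alone gave 4248 (26.7%). All 1820 were also called with the block, and 1767 of them with replicates 2 and 3 only. The 3 red-light signals and the 3 dark signals did not overlap for 1805 of the 1820, while 4497 of all tested probe sets (28.2%) had groups that did not overlap. The balance of higher and lower calls depended on scaling. Of the calls, 49.4% were higher as deposited, 67.4% after median centring and 53.5% after quantile normalization, and over all tested probe sets the log2 fold change had a median of -0.06 as deposited, 0.08 with median centring and 0.00 with quantile normalization.

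**Figure D2:**
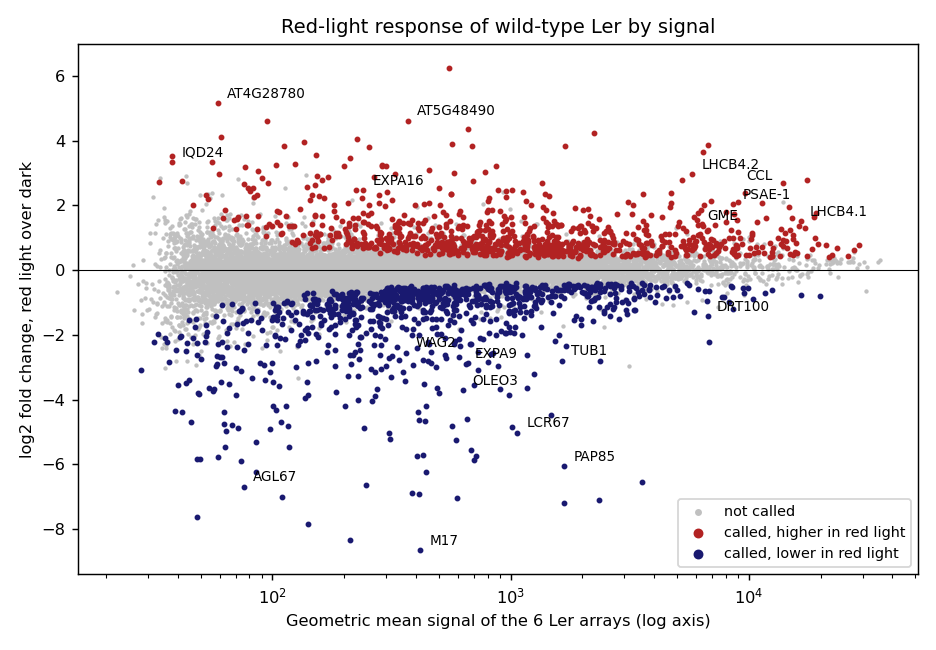
Geometric mean signal of the 6 Ler arrays (log axis) against the log2 fold change of red light over dark, 1 point per tested probe set, with the 899 called higher in red, the 921 called lower in dark blue and the rest in grey. Falls reach -8.65 (M17), and calls of both directions are spread over the signal range.

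Below, log2 fold changes are red light over dark with the standard error of the limma model (n = 3 arrays per group), signals are on the deposited linear scale, and each adjusted p is limma's with Benjamini-Hochberg adjustment over all 15922 probe sets. Among the 8717 tested probe sets with 1 named gene, 881 were called (10.1%), 414 higher and 467 lower. A gene list is described by its counts beside these shares and by its median log2 fold change, beside -0.06 for all probe sets. Where leaving out 1 array ended a call, those arrays are named with the range of the log2 fold change over the 6 fits that each leave out 1 Ler array. In RNA from whole aerial parts, fewer cells of a type and less RNA per cell cannot be told apart.

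Most tested nuclear genes for the photosystems and their antennae rose. Of 10 tested, 6 were called higher and 1 lower in red light, with a median log2 fold change of 1.26. LHCB4.1 (AT5G01530) and LHCB4.2 (AT3G08940) encode CP29, a minor antenna protein between the outer light-harvesting trimers and the core of photosystem II. LHCB4.1 had signals of 25512, 28661 and 28906 in red light, against 10139, 8836 and 10513 in the dark. LHCB4.2 had 14482, 16620.4 and 17525 in red light, against 1923, 1995 and 2323 in the dark. Every red-light array was clearly above every dark array for both genes, and the arrays of a group lay close together. LHCB4.1 rose by 1.50 ± 0.14 (adjusted p = 2.46e-05) and LHCB4.2 by 2.96 ± 0.26 (adjusted p = 1.2e-05).

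The remaining family member moved the other way. LHCB4.3 (AT2G40100), a further CP29-type antenna gene, had signals of 168, 189 and 292 in red light, against 422, 449 and 392 in the dark. The groups did not overlap, with the dark arrays on top and the third red-light array nearest to them. LHCB4.3 fell by 1.00 ± 0.21 on the log2 scale (adjusted p = 0.00879). Whether probes of these close relatives also bind each other's transcripts was not tested.

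The nuclear photosystem I subunit genes PSAE-1 and PSAN were called higher. PSAE-1 (AT4G28750), a stromal subunit at the ferredoxin docking site, had signals of 10781, 23736 and 20559 in red light, against 2345, 6418 and 5109.5 in the dark. Replicate 1 was the lowest of its group in both conditions, yet its red-light signal was above every dark signal. PSAE-1 rose by 2.03 ± 0.47 (adjusted p = 0.0134, and 2.24e-09 with the replicate block). With 1 array left out, the call of PSAE-1 ended without red-light replicate 2 or 3 (1.60 to 2.38). PSAN (AT5G64040), a lumenal subunit on the plastocyanin side, had 8014, 12437 and 11200.5 in red light, against 3227, 3375 and 3322 in the dark. The dark arrays were nearly equal and all red-light arrays were higher, a rise of 1.65 ± 0.21 (adjusted p = 0.000233).

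Of 2 small photosystem II proteins tested, 1 was called. PSBY (AT1G67740), a small membrane protein of photosystem II, had 11722, 11949.6 and 11475 in red light, against 3835, 4983 and 4576 in the dark, and rose by 1.40 ± 0.15 (adjusted p = 5.89e-05). PGRL1B, of the family that acts in cyclic electron flow around photosystem I, rose by 1.00 ± 0.26 (adjusted p = 0.029). Its groups did not overlap, but the call ended when only the Ler arrays were fitted. PSBW (AT2G30570), a photosystem II subunit, had 4939, 11073 and 9807 in red light, against 2502, 4379 and 4763 in the dark. All its red-light arrays were above the dark ones and replicate 1 was the lowest in each group, and 1.12 ± 0.38 was not called (adjusted p = 0.0785, and 0.000111 with the block). The light-harvesting-like proteins LIL3:1 and LIL3:2, which bind chlorophyll-synthesis enzymes in the membrane, were not called by limma (-0.91 and -0.93, adjusted p = 0.214 and 0.234), and with the block both were lower in red light (adjusted p = 0.000239 and 0.000963). Among fits without 1 array, the call of PGRL1B ended without red-light replicate 1 or 2 or dark replicate 2 or 3 (0.67 to 1.26). With the block the list counted 7 higher and 3 lower.

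**Figure D3:**
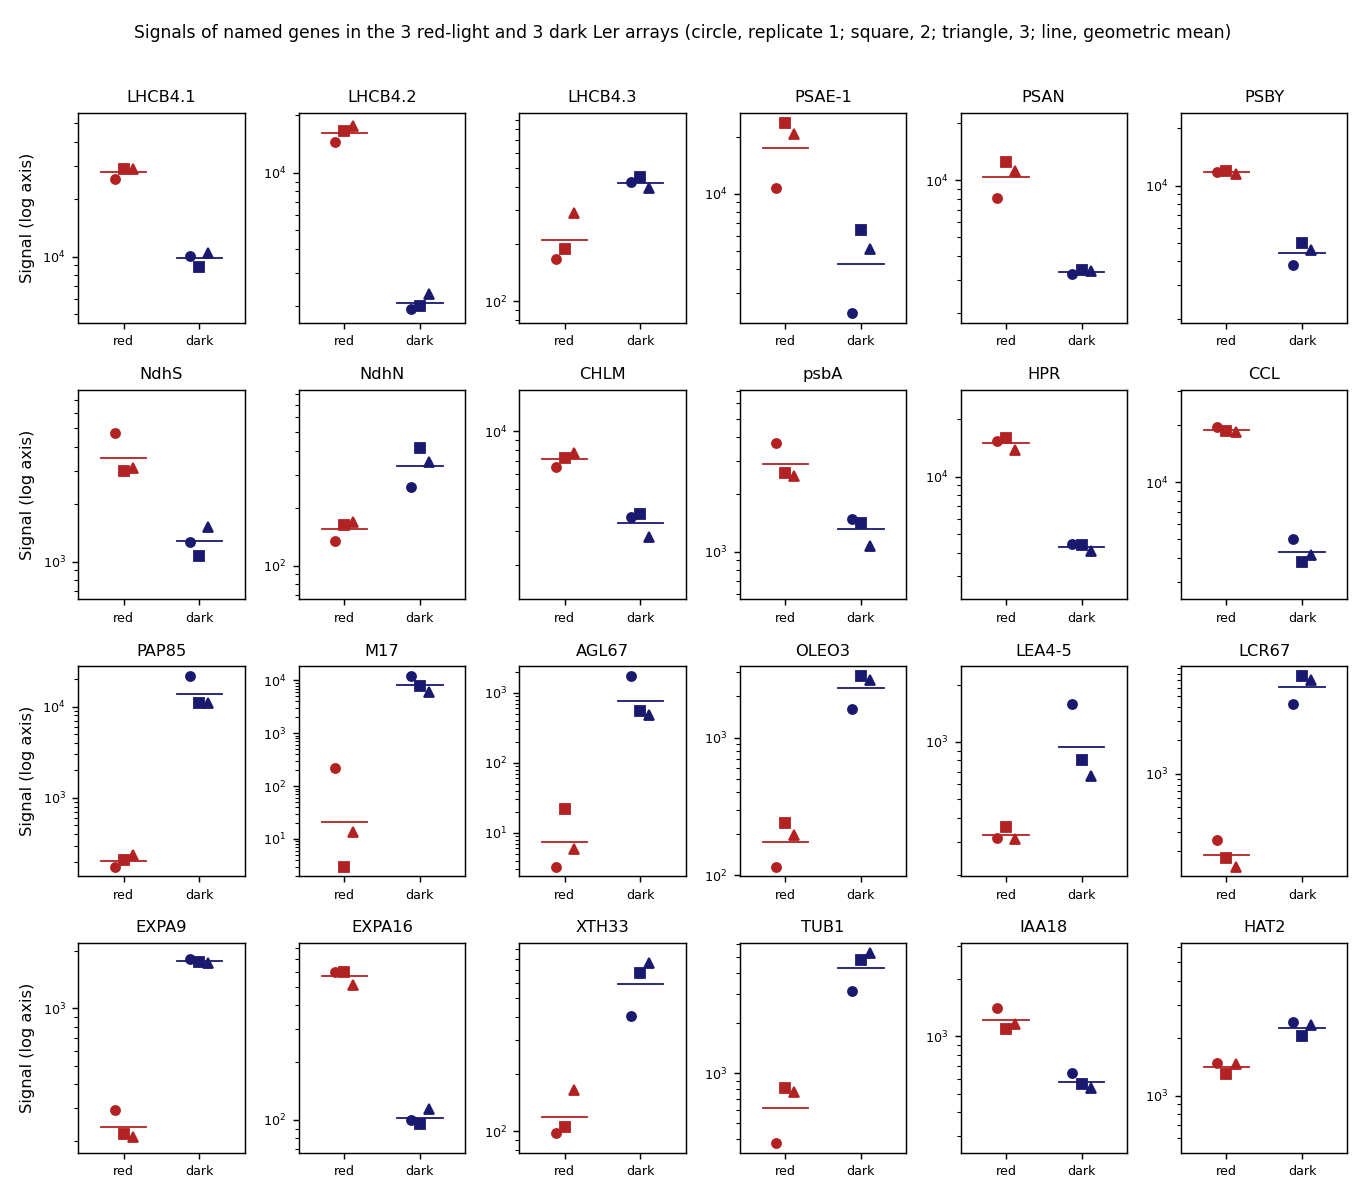
Deposited signal (log axis, a range of its own in each panel) of 24 genes in the 3 red-light arrays (red, left) and the 3 dark arrays (dark blue, right) of Ler, with circles for replicate 1, squares for 2, triangles for 3 and lines at geometric means. The groups do not overlap in any panel, and replicate 1 often lies apart from 2 and 3 on the same side in both conditions, as for PSAE-1 (10781, 23736 and 20559 in red light, against 2345, 6418 and 5109.5 in the dark).

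Thylakoid electron transport genes were mixed. Of 10 tested, 3 were called higher and 1 lower, with a median of 0.10. NdhS (AT4G23890), a subunit of the chloroplast NADH dehydrogenase-like complex, had 4699, 2976 and 3097 in red light, against 1273, 1073 and 1516 in the dark, with red-light replicate 1 the highest. It rose by 1.46 ± 0.26 (adjusted p = 0.00284). NdhN (AT5G58260), a subunit of the same complex, had 135, 164 and 170.0 in red light, against 258, 413 and 352 in the dark, and fell by 1.11 ± 0.29 on the log2 scale (adjusted p = 0.0274). Both genes had groups that did not overlap, in opposite order. The call of NdhN ended without red-light replicate 1, 2 or 3 or dark replicate 2 or 3 (-1.30 to -0.95).

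PIFI (AT3G15840), named for a post-illumination rise in chlorophyll fluorescence linked to that complex, rose by 1.51 ± 0.18 (adjusted p = 0.000145), at 2506, 2596 and 2586 in red light, against 656, 1058 and 1042 in the dark. ATPC1 (AT4G04640), the gamma subunit of the chloroplast ATP synthase, rose by 1.07 ± 0.20 (adjusted p = 0.00467). Its signals were 7405, 10036 and 9467 in red light, against 3186, 4764 and 5046 in the dark, and the lowest red-light array was well above the highest dark one. With the block, NdhL (0.73, adjusted p = 0.0127) was also higher and CRR21 (-1.09, adjusted p = 0.0467), an RNA-editing factor for that complex, also lower.

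Among chlorophyll synthesis genes, limma without the block called 1. CHLM (AT4G25080), the magnesium protoporphyrin IX methyltransferase, had 6486, 7239.9 and 7740.2 in red light, against 3544, 3698 and 2808 in the dark. The groups lay apart with no overlap, and CHLM rose by 1.10 ± 0.17 (adjusted p = 0.00125), the only call among 11 tested genes, whose median was 0.05. PORB (AT4G27440), a light-dependent protochlorophyllide oxidoreductase already abundant in etioplasts, had 3967, 8169 and 7806 in red light, against 6547, 12994 and 12672 in the dark. Its groups overlapped, both replicate 1 signals being low, while within each replicate number the red-light signal was the lower, and the log2 fold change of -0.70 had an adjusted p of 0.321, and 9.5e-05 with the block. The block also called GSA1 (-0.52, adjusted p = 0.0137) and HEMB1 (-0.43, adjusted p = 0.0249) lower, which act at early steps of tetrapyrrole synthesis. It called HEME1 (0.44, adjusted p = 0.0106), a uroporphyrinogen decarboxylase, and AT1G74470 (0.46, adjusted p = 0.00229), annotated as geranylgeranyl reductase, higher. With the block the list thus had 3 genes higher and 3 lower.

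Transcripts encoded in the plastid genome rose more often than they fell. Of 67 tested, 12 were called higher and 3 lower, 32 and 8 with the block, with a median of 0.31 (0.45 after median centring and 0.11 after quantile normalization). The genes called higher encode subunits of the photosystems, the cytochrome complex, the ATP synthase and the NADH dehydrogenase-like complex, except cemA, for a protein of the chloroplast envelope (0.55 ± 0.13, adjusted p = 0.0193), a call that ended with no low-signal filter, with the Ler arrays alone and after quantile normalization. Those called lower were rpl22 and rpl14, for ribosomal proteins, and rpoC1, for a subunit of the plastid RNA polymerase. psbA, the D1 reaction-centre protein of photosystem II, had 3736, 2597 and 2507 in red light, against 1486, 1417 and 1066 in the dark, and rose by 1.15 ± 0.23 (adjusted p = 0.00583). psaB, a reaction-centre protein of photosystem I, had 13807, 21269.7 and 21908 in red light, against 7046, 12568 and 9300.3 in the dark, and ndhK had 1278, 842 and 976 in red light, against 574, 474 and 425 in the dark. Neither pair of groups overlapped. psaB rose by 0.99 ± 0.24 (adjusted p = 0.0188), a call that ended after quantile normalization, and ndhK by 1.06 ± 0.20 (adjusted p = 0.00367). With 1 array left out, the call of psaB ended without red-light replicate 2 or 3 or dark replicate 1 or 3 (0.78 to 1.20) and that of cemA ended without red-light replicate 1 or 2 or dark replicate 3 (0.39 to 0.67).

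On the lower side, rpl22 had 6339, 8008 and 8179 in red light, against 10328, 13419 and 12839 in the dark, all dark arrays being above all red-light arrays. The falls of rpl22 (-0.70 ± 0.19), rpoC1 (-0.54 ± 0.15) and rpl14 (-0.49 ± 0.13) had adjusted p values of 0.035, 0.0341 and 0.0296, and all 3 calls ended after median centring. Among fits without 1 array, the call of rpl22 ended without red-light replicate 1, 2 or 3 or dark replicate 2 or 3 (-0.82 to -0.58), that of rpoC1 ended without red-light replicate 1 or 3 or dark replicate 1 or 2 (-0.63 to -0.45) and that of rpl14 ended without red-light replicate 2 or 3 or dark replicate 1, 2 or 3 (-0.55 to -0.39). Further plastid genes shifted with the block: psbE (0.90, adjusted p = 7.02e-05) and psaA (1.03, adjusted p = 2.27e-05) were higher, rps16 (-0.82, adjusted p = 0.00304) and rpoB (-0.71, adjusted p = 0.0285) lower. rbcL, the large subunit of Rubisco, had 2067, 1096 and 1325 in red light, against 1451, 2166 and 1680.5 in the dark. Its groups overlapped and its log2 fold change of -0.27 was not called (adjusted p = 0.607, and 0.495 with the block). Replicate 1 of rbcL ran opposite to replicates 2 and 3, and with replicates 2 and 3 only rbcL was lower (-0.66, adjusted p = 0.0016).

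Carbon metabolism gave a strong rise at a photorespiratory step. HPR (AT1G68010), the peroxisomal hydroxypyruvate reductase, had 15458, 15914 and 13826 in red light, against 4463, 4370.5 and 4088 in the dark, and rose by 1.80 ± 0.14 (adjusted p = 4.71e-06). None of 3 tested Calvin cycle genes was called. RCA (AT2G39730), the activase of Rubisco, had 7875, 13642 and 12391 in red light, against 5449.6, 8908 and 9087 in the dark, and PRK (AT1G32060), phosphoribulokinase, had 5168, 11069.6 and 11667 in red light, against 5199, 7281 and 8105 in the dark. Replicate 1 was low in both conditions for both genes and the groups overlapped. With the block RCA was called (0.53, adjusted p = 0.00073) and PRK was not (0.37, adjusted p = 0.0658). With replicates 2 and 3 only, both RCA (0.53, adjusted p = 0.000312) and PRK (0.56, adjusted p = 0.000383) were higher.

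Other abundant transcripts that rose at least 2-fold included CCL (AT3G26740), annotated as CCR-like, with 19354, 18439.7 and 18208 in red light, against 5036, 3821 and 4166 in the dark, a rise of 2.11 ± 0.15 (adjusted p = 2.72e-06). AT2G26500 and AT1G51400, which carry no description in the gene table used, rose by 1.27 ± 0.13 and 1.74 ± 0.19. Their lowest red-light signals were 20871 and 12327, above the highest dark signals of 9579 and 5196. Outside the rule for named genes, and chosen after its values were seen, GME (AT5G28840), the GDP-mannose epimerase on the route to ascorbate, had 11615, 8900.0 and 9286 in red light, against 3901, 3981 and 3535 in the dark, and rose by 1.38 ± 0.15 (adjusted p = 6.75e-05).

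Seed transcripts included the largest fall of the comparison, that of M17. All 10 tested seed-maturation genes had negative log2 fold changes, 7 of them called lower and all 10 with the block, with a median of -2.73. M17 (AT2G41260), a late embryogenesis abundant protein gene, had 220.3, 3.0 and 13.7 in red light, against 12177, 7947 and 6038 in the dark. PAP85 (AT3G22640), a vicilin-like storage protein gene, had 177, 209.5 and 234 in red light, against 21601, 10988 and 10913 in the dark. Dark signals were far above red-light signals on every array, and dark replicate 1 was the highest for both genes. M17 had a log2 fold change of -8.65 ± 1.05 (adjusted p = 0.000189) and PAP85 one of -6.06 ± 0.25 (adjusted p = 5.22e-08), and the red-light signals of M17 spread far more on the log2 scale than its dark signals.

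AGL67 (AT1G77950), a MADS-box transcription factor of late seed development, had 3.3, 21.9 and 5.8 in red light, against 1742, 543 and 488 in the dark. Its red-light signals were at the bottom of the scale, and its log2 fold change was -6.69 ± 0.99 (adjusted p = 0.000841). M10 (AT2G41280), another gene of this protein class, had 66, 111 and 12.1 in red light, against 1889, 1321 and 887 in the dark, and a log2 fold change of -4.87 ± 0.62 (adjusted p = 0.000257). The oleosin OLEO3 (AT5G51210), a protein of the oil-body surface, had 116, 239 and 195 in red light, against 1629, 2817 and 2615 in the dark. OLEO3 was lowest in dark replicate 1, unlike M17, PAP85 and AGL67, which were highest there, and it fell by 3.71 ± 0.27 on the log2 scale (adjusted p = 2.76e-06).

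Other late embryogenesis abundant genes had smaller changes. LEA4-5 (AT5G06760) had 314, 358 and 311 in red light, against 1585, 799.9 and 661 in the dark, a log2 fold change of -1.53 ± 0.36 (adjusted p = 0.0161). The call of LEA4-5 ended without red-light replicate 3 (-1.79 to -1.15). AT2G46140, listed as LEA27, had 168, 194 and 172 in red light, against 361, 291 and 328 in the dark, and fell by 0.87 ± 0.15 on the log2 scale (adjusted p = 0.00211). LEA18 (AT2G35300) had 2818, 1130.4 and 754 in red light, against 8811, 3403 and 3039.8 in the dark. Its groups did not overlap and replicate 1 was high in both, and -1.75 ± 0.54 was not called (adjusted p = 0.0559, and 2.39e-07 with the block). The same held for AtLEA4-1 (-1.74, adjusted p = 0.0728, and 7.66e-07 with the block). Whether the red-light and dark samples differed in how many seeds had yet to germinate was not tested.

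Several loci without a description in the gene table fell as far. AT1G14950 had 87.5, 53 and 29.7 in red light, against 7721, 5947 and 7041 in the dark, with dark arrays that lay close together. Its log2 fold change was -7.05 ± 0.33 (adjusted p = 7.49e-08). AT5G45690 (-7.84), AT1G27461 (-6.24), AT1G54870 (-5.75), AT3G05260 (-5.73), AT1G54860 (-5.46), AT3G01570 (-5.24), AT2G28490 (-5.04) and AT2G15010 (-3.88) were among the 15 falls named by rule, with adjusted p values between 9.98e-07 and 0.00253. AT1G54860 and AT1G54870 have adjacent locus numbers. Of the 101 probe sets that fell at least 8-fold, 73 had their highest dark signal in replicate 1. Over all tested probe sets, dark replicate 1 lay outside the range of replicates 2 and 3, on either side, in 82.0%. The share in which it was the highest was not counted, so the 73 are not read as a trait of the falls.

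Further genes tied to seed reserves were chosen after their values were seen. ATOEP16-2 (AT4G16160), a plastid outer-envelope channel protein of seeds, had 57.2, 80.2 and 63.7 in red light, against 749.7, 666 and 536 in the dark, a log2 fold change of -3.28 ± 0.34 (adjusted p = 5.32e-05). EEL (AT2G41070), a bZIP factor of late embryo genes, had 194, 129 and 83.2 in red light, against 1056, 468 and 536 in the dark, and a log2 fold change of -2.33 ± 0.33 (adjusted p = 0.000644). BETA-VPE (AT1G62710), a vacuolar processing enzyme that cleaves storage proteins, had -1.30 (adjusted p = 0.0273), and that call ended after median centring. With 1 array left out, the call of BETA-VPE ended without red-light replicate 2 or 3 or dark replicate 1 or 2 (-1.56 to -0.98). Genes for the breakdown of seed oil were not called, 0 of 4 by limma. ICL (AT3G21720), isocitrate lyase of the glyoxylate cycle, had 14453, 8505 and 8552 in red light, against 20973, 10287 and 11583 in the dark, with overlapping groups and replicate 1 highest in both. With the block ICL was lower (-0.42, adjusted p = 0.0245) and the lipase SDP1 (AT5G04040) higher (0.50, adjusted p = 0.014).

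Dehydration genes outside the seed list did not move together. Of 8 genes tied to abscisic acid and dehydration, 1 was called lower and none higher, with a median of 0.33. The gene with the symbol LEA (AT2G21490), annotated as a dehydrin, had 108, 85.4 and 60.7 in red light, against 3782, 1642 and 1398 in the dark. Its dark signals were far above the red-light ones, with replicate 1 highest in both groups, and its log2 fold change was -4.64 ± 0.47 (adjusted p = 4.51e-05). COR47 (AT1G20440), a dehydrin of cold and drought responses, had 29901, 23984 and 23832 in red light, against 26525, 17537 and 17106 in the dark, with overlapping groups. It was called higher with the block (0.37, adjusted p = 0.0215), as was AT1G54410, a small dehydrin (0.37, adjusted p = 0.0246). With all replicate 1 arrays left out, COR47 (0.47, adjusted p = 0.000654) and AT1G54410 (0.34, adjusted p = 0.0187) were also called higher. RD2 (AT2G21620) was lower with the block (-0.55, adjusted p = 0.00091).

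LTI30 (AT3G50970), a further dehydrin, depended on replicate 1. It had 2114, 4094 and 4430.1 in red light, against 3149, 1579 and 1344 in the dark, so that replicate 1 ran opposite to replicates 2 and 3. Its log2 fold change of 0.84 was not called (adjusted p = 0.132), and with replicates 2 and 3 only it was 1.55 (adjusted p = 2.65e-07).

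Of 15 defence genes tested, 2 were called lower and none higher, with a median of -0.20, and with the block 4 were lower and 1 higher. Both called without the block encode small cysteine-rich proteins. LCR67 (AT1G75830), also named plant defensin 1.1, had 254, 176 and 146 in red light, against 4257, 7649 and 7001 in the dark. PDF2.1 (AT2G02120), a related defensin gene, had 23.6, 31 and 32.1 in red light, against 149, 466 and 402 in the dark. Both were many times higher in every dark array, with dark replicate 1 the lowest. LCR67 had a log2 fold change of -5.03 ± 0.50 (adjusted p = 3.74e-05) and PDF2.1 one of -3.40 ± 0.50 (adjusted p = 0.000802). With the block the defensin genes PDF1.2b (-2.30, adjusted p = 0.0213) and PDF1.4 (-0.86, adjusted p = 0.0427) were also lower and the chitinase gene ChiC (0.63, adjusted p = 0.00144) was higher. With replicates 2 and 3 only, PDF1.4 was not called (-0.53, adjusted p = 0.139).

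Wall-loosening genes changed in both directions. Of 19 expansins and xyloglucan endotransglucosylases tested, 1 was called higher and 5 lower, with a median of -0.03 that turned to 0.11 after median centring and 0.01 after quantile normalization. EXPA9 (AT5G02260), an alpha-expansin, had 294, 218 and 212 in red light, against 1807, 1750.3 and 1735 in the dark. EXPA16 (AT3G55500), from the same subfamily, had 598, 595 and 510.2 in red light, against 99.8, 95 and 114 in the dark. The groups of each gene lay far apart, in opposite order and with little spread. EXPA9 fell by 2.89 ± 0.19 on the log2 scale (adjusted p = 1.11e-06) and EXPA16 rose by 2.47 ± 0.20 (adjusted p = 7.9e-06).

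XTH33 (AT1G10550), which recuts and joins xyloglucan chains, had 98.1, 105 and 164 in red light, against 402, 677 and 764 in the dark, and a log2 fold change of -2.31 ± 0.30 (adjusted p = 0.000344). XTH19 (AT4G30290), of the same enzyme family, had 515, 607 and 506 in red light, against 784, 2235 and 2689.6 in the dark. Its dark replicate 1 was close to the red-light arrays, and -1.63 ± 0.36 (adjusted p = 0.0114) was no longer called with the Ler arrays alone. EXLA2 had -1.21 (adjusted p = 0.0269) and EXPA4 -0.74 (adjusted p = 0.0281), and the call of EXPA4 ended after median centring. Among fits without 1 array, the call of XTH19 ended without dark replicate 2 or 3 (-2.18 to -1.29), that of EXLA2 ended without red-light replicate 1 or 3 or dark replicate 2 or 3 (-1.37 to -0.97) and that of EXPA4 ended without red-light replicate 1 or 3 or dark replicate 1, 2 or 3 (-0.81 to -0.65). With the block EXPB1 was also lower (-0.91, adjusted p = 0.0356) and EXGT-A3, another xyloglucan endotransglucosylase gene, was also higher (0.57, adjusted p = 0.0115).

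Pectin and glucan genes were split as well. PMEPCRF (AT5G53370), a pectin methylesterase, had 860.0, 873 and 824 in red light, against 353, 323 and 339.5 in the dark, and rose by 1.33 ± 0.15 (adjusted p = 0.000105). ATPMEPCRD (AT2G43050), named for the same kind of enzyme, had 4952, 5642 and 6452 in red light, against 11708, 13243 and 13932 in the dark, with no overlap, and fell by 1.19 ± 0.20 on the log2 scale (adjusted p = 0.00226). PME61 fell too (-1.25, adjusted p = 0.0383), though its groups overlapped and the call ended with the Ler arrays alone. CSLC04 (AT3G28180), a synthase of the xyloglucan backbone, had 1357, 1987 and 2213 in red light, against 2831, 4486 and 4114 in the dark, and a log2 fold change of -1.04 ± 0.22 (adjusted p = 0.00758). CSLA03 (AT1G23480), a synthase-like gene of another subfamily, was higher (0.76, adjusted p = 0.0393), and that call ended with the Ler arrays alone. The call of PME61 ended without red-light replicate 1 or 3 or dark replicate 2 or 3 (-1.72 to -0.96) and that of CSLA03 ended without red-light replicate 1 or 3 or dark replicate 1 or 3 (0.62 to 0.90). With the block CSLC5, a relative of CSLC04, was lower too (-0.68, adjusted p = 0.00288).

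Among 8 tubulin and actin genes, 1 was called lower and 1 higher, with a median of -0.34. TUB1 (AT1G75780), a beta-tubulin gene, had 379, 817 and 767 in red light, against 3149.7, 4824 and 5322 in the dark. Replicate 1 was the lowest in each group, and the groups were far apart. TUB1 had a log2 fold change of -2.80 ± 0.35 (adjusted p = 0.000213), and TUA1 (AT1G64740), an alpha-tubulin gene, rose by 0.66 ± 0.19 (adjusted p = 0.0446), a call that ended after quantile normalization. With 1 array left out, the call of TUA1 ended without red-light replicate 1, 2 or 3 or dark replicate 2 or 3 (0.47 to 0.75). With the block TUA6 (-0.47, adjusted p = 0.011), TUB5 (-0.45, adjusted p = 0.0101) and ACT11 (-0.49, adjusted p = 0.0245) were also lower. Among abundant transcripts that fell at least 2-fold, DRT100 (AT3G12610) had -1.42, and AT4G32460 and AT2G37130, with no description in the gene table, had -2.82 and -1.31 (adjusted p between 1.85e-05 and 0.00695).

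**Figure D4:**
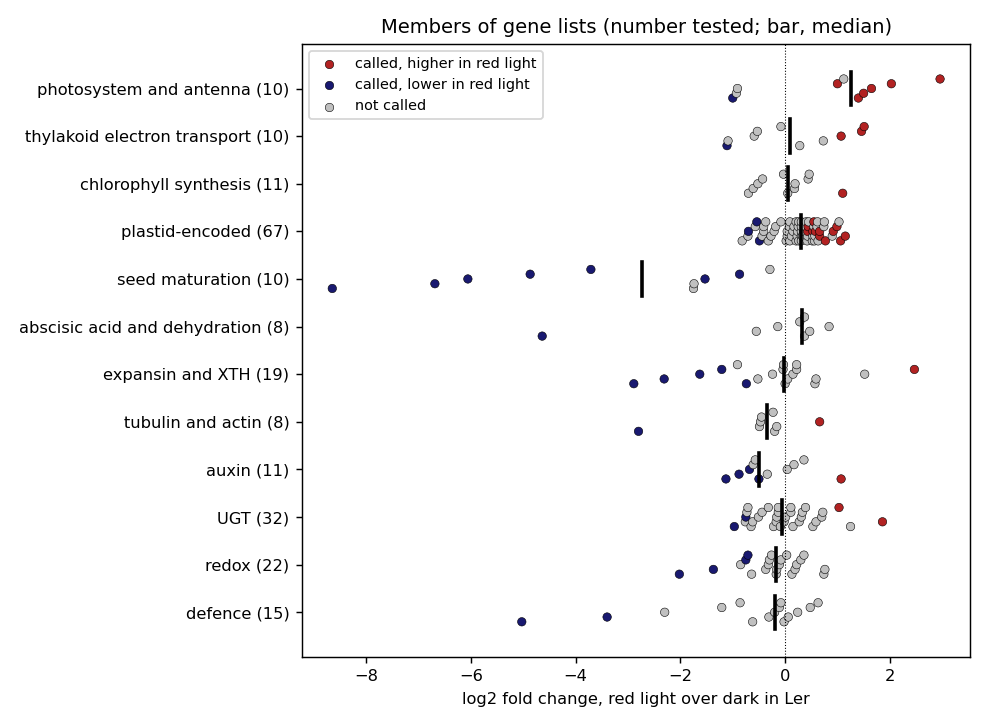
Log2 fold changes of red light over dark in Ler for the tested members of 12 gene lists, 1 point per gene, with called rises in red, called falls in dark blue, the rest in grey and a bar at each median. Photosystem genes have a median of 1.26 and seed-maturation genes one of -2.73, and most other lists lie around 0 with a few called members.

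Auxin genes fell more often than they rose. Of 11 tested, 4 were called lower and 1 higher, with a median of -0.50. GH3.3 (AT2G23170) and WES1 (AT4G27260) encode enzymes that join auxin to amino acids. GH3.3 had 379, 580.5 and 769 in red light, against 1635, 1013 and 1080.5 in the dark, and WES1 had 2219, 2052 and 2335 in red light, against 3390.3, 2846 and 3114 in the dark. No red-light array reached the lowest dark array of either gene. GH3.3 had a log2 fold change of -1.13 ± 0.28 (adjusted p = 0.0193), a call that ended with the Ler arrays alone, and WES1 one of -0.50 ± 0.12 (adjusted p = 0.0204), a call that ended after median centring. Among fits without 1 array, the call of GH3.3 ended without red-light replicate 1 or dark replicate 1 (-1.37 to -0.86) and that of WES1 ended without red-light replicate 2 or dark replicate 3 (-0.56 to -0.44).

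Of the Aux/IAA repressors of auxin response, 2 went opposite ways. IAA20 (AT2G46990) had 399.8, 371 and 392 in red light, against 625, 722 and 800.1 in the dark, and IAA18 (AT1G51950) had 1416, 1098 and 1160.3 in red light, against 644, 564 and 535 in the dark. IAA20 was lower and IAA18 higher in every red-light array, with log2 fold changes of -0.88 ± 0.18 (adjusted p = 0.00786) and 1.07 ± 0.14 (adjusted p = 0.000421). HAT2 (AT5G47370), an auxin-induced homeodomain factor, had 1489, 1298 and 1465 in red light, against 2443, 2049 and 2349 in the dark, and its fall of -0.68 ± 0.17 (adjusted p = 0.0187) was not called after median centring. The call of HAT2 ended without red-light replicate 2 or dark replicate 3 (-0.76 to -0.62). IAA29 was lower with the block (-0.61, adjusted p = 0.0317), and YUC2, an auxin synthesis gene, was called by neither (-0.57, adjusted p = 0.229, and 0.169 with the block).

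WAG2 (AT3G14370), a protein kinase that acts on auxin efflux carriers, stood outside the lists and was chosen after its values were seen. It had 96.7, 146 and 243 in red light, against 706, 1038 and 929.8 in the dark, with no overlap, and a log2 fold change of -2.55 ± 0.34 (adjusted p = 0.000395). Of 3 brassinosteroid genes, BIM1 (AT5G08130), a transcription factor of brassinosteroid responses, had 476, 497 and 456 in red light, against 822, 965 and 875 in the dark, and fell by 0.89 ± 0.13 on the log2 scale (adjusted p = 0.000584). BRH1 (AT3G61460), a RING protein gene responsive to brassinosteroid, was higher (0.46 ± 0.13, adjusted p = 0.0442), a call that ended after quantile normalization. Of 12 cell-cycle and histone genes, 2 were called lower and none higher, and with the block 2 were lower and 2 higher. The lower ones were SIM (AT5G04470), an inhibitor of cyclin-dependent kinases (-0.79 ± 0.15, adjusted p = 0.00351), and the histone gene HTB2 (-0.69 ± 0.16, adjusted p = 0.0132), whose call ended after median centring. With 1 array left out, the call of BRH1 ended without red-light replicate 2 or 3 or dark replicate 1 or 3 (0.37 to 0.55) and that of HTB2 ended without red-light replicate 2 (-0.73 to -0.62). Higher with the block were the linker histone genes HON4 (0.50, adjusted p = 0.0232) and HIS1-3 (0.88, adjusted p = 0.000571).

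Photoreceptor signalling, clock and gibberellin genes with a named probe set gave no call over 3 replicates, with or without the block, and 1 call in each list with replicates 2 and 3 only. Among 3 light-signalling genes, FHL (AT5G02200), a partner of phytochrome A import into the nucleus, had 179, 102 and 133 in red light, against 201, 206 and 191 in the dark. The groups did not overlap, but -0.57 ± 0.21 had an adjusted p of 0.0995, and with replicates 2 and 3 only FHL was lower (-0.77, adjusted p = 0.0232). HYH (AT3G17609), a relative of the factor HY5, was near the low-signal limit, with 30.6, 49.8 and 52.9 in red light, against 5.0, 101 and 70.2 in the dark, and 0.40 was not called (adjusted p = 0.828). Of 4 clock genes none was called, with GI (AT1G22770) at 0.17 and FIO1 (AT2G21070) at -0.70 (adjusted p = 0.7 and 0.215). With replicates 2 and 3 only, the clock gene XCT was higher (0.51, adjusted p = 0.0408, beside 0.10 and 0.894 over all replicates). Of 6 gibberellin genes none was called, with the F-box genes SLY1 (AT4G24210) at 0.37 and SLY2 (AT5G48170) at 0.91 (adjusted p = 0.195 and 0.121). The gibberellin receptor gene GID1A was higher with replicates 2 and 3 only (0.30, adjusted p = 0.0428, beside 0.14 and 0.705 over all replicates). The named probe sets hold few of the genes of these pathways, so a list without a call covers only the members tested.

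Of 22 redox genes, 4 were called lower and none higher, with a median of -0.17, and with the block 6 were lower and 1 higher. MSRB9 (AT4G21850), a methionine sulfoxide reductase, had 322, 673 and 776 in red light, against 1312, 2658 and 3242 in the dark, with replicate 1 low in both groups and no overlap. Its log2 fold change was -2.02 ± 0.43 (adjusted p = 0.00899). GRXC1 (AT5G63030), a glutaredoxin, had 546, 492 and 438 in red light, against 1492, 1258 and 1089.7 in the dark, and -1.37 ± 0.17 (adjusted p = 0.00021). The thioredoxin TY1 and CCS, the copper chaperone of superoxide dismutase, had -0.75 and -0.71 (adjusted p = 0.0173 and 0.00295). Among fits without 1 array, the call of TY1 ended without red-light replicate 1 (-0.92 to -0.56). With the block the plastid thioredoxin TRXF2 was higher (0.74, adjusted p = 0.00131), and SAPX, the stromal ascorbate peroxidase (-0.64, adjusted p = 0.0053), and MSRB5 (-0.37, adjusted p = 0.0237), of the family of MSRB9, were lower.

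Among 32 UDP-sugar glycosyltransferases, which attach sugars to hormones and small metabolites, 2 were called higher and 2 lower, with a median of -0.05. With the block 5 were higher and 5 lower, and with replicates 2 and 3 only 6 were higher and 5 lower. UGT88A1 (AT3G16520) had 2452, 2775 and 2858 in red light, against 571, 908 and 779 in the dark, and rose by 1.86 ± 0.20 (adjusted p = 6.42e-05). UGT73B1 (AT4G34138) rose by 1.03 ± 0.17 (adjusted p = 0.00204), while UGT87A2 (-0.97, adjusted p = 0.0137) and UGT74B1 (-0.75, adjusted p = 0.0327), of glucosinolate synthesis, were lower. The call of UGT74B1 ended after median centring and after quantile normalization. With the block UGT84A3 (1.25), UGT85A5 (0.72) and UGT74D1 (0.70) were also higher and UGT76B1 (-0.62), UGT85A2 (-0.51) and UGT76E2 (-0.44) also lower. Of 11 glutathione transferases, GSTU18 was called higher (0.90, adjusted p = 0.0298), and with the block GSTU28 was too (2.03, adjusted p = 0.0465). Of the SWEET sugar transporters, SWEET1 (AT1G21460) had 1576, 1425 and 1540.5 in red light, against 589, 600.2 and 503 in the dark, and SWEET3 (AT5G53190) had 218, 243 and 228 in red light, against 375, 569 and 601 in the dark. SWEET1 was higher and SWEET3 lower in every red-light array, with log2 fold changes of 1.43 ± 0.16 (adjusted p = 9.89e-05) and -1.14 ± 0.20 (adjusted p = 0.00287). With the block SWEET11 was also higher (0.57, adjusted p = 0.00396) and SWEET16 also lower (-0.69, adjusted p = 0.00296). Among 6 heat shock genes Fes1C was called higher (0.68, adjusted p = 0.0292), a call that ended with the Ler arrays alone, and with the block Fes1A was lower (-0.55, adjusted p = 0.0482). The call of UGT74B1 ended without red-light replicate 2 or 3 or dark replicate 1, 2 or 3 (-0.85 to -0.64), that of GSTU18 ended without red-light replicate 2 or 3 or dark replicate 1 or 2 (0.69 to 1.12) and that of Fes1C ended without red-light replicate 1, 2 or 3 or dark replicate 2 or 3 (0.50 to 0.86). In the lists of starch, P450, wax, carotenoid and glucosinolate genes, further calls came with the block. Higher were SBE2.2 (0.53), of starch branching, CYP71B5 (0.68), a cytochrome P450, and AT5G61590 (0.57), annotated as a factor that lowers wax synthesis. Lower were DPE1 (-0.64), of starch breakdown, Z-ISO (-0.65), a carotenoid isomerase, and AOP1 (-0.84), of glucosinolate synthesis. With replicates 2 and 3 only, CYP71B5, AT5G61590, Z-ISO and AOP1 were called in the same direction. SBE2.2 and DPE1 were not called there (adjusted p = 0.25 and 0.0657).

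Most of the 15 rises named by rule lay in loci the gene table does not describe. AT4G28780 had 161, 589 and 469.7 in red light, against 8.7, 6.4 and 17.5 in the dark, and AT5G48490 had 445, 3486 and 3965 in red light, against 56.7, 98 and 75.4 in the dark. In both, red-light replicate 1 was far below replicates 2 and 3 but above every dark array. Their log2 fold changes were 5.16 ± 0.83 (adjusted p = 0.00154) and 4.61 ± 0.85 (adjusted p = 0.00351). Steadier across arrays was AT1G13930, with 3392, 3415 and 3529 in red light, against 530.3, 539.7 and 539 in the dark, and a rise of 2.68 ± 0.12 (adjusted p = 7.49e-08). Also among the 15 rises named by rule were AT4G19530 (4.61), AT1G04660 (3.96), AT4G38080 (3.88), AT2G22510 (3.79), AT1G74460 (3.27), AT5G16030 (3.20), AT5G01740 (3.10), AT2G35380 (3.06), AT3G19850 (2.96) and AT1G18810 (2.90). Beside LHCB4.2, the gene with a symbol in this set was IQD24 (AT5G07240), of a family with calmodulin-binding IQ domains, at 129, 165 and 81.5 in red light, against 5.1, 11.3 and 29.8 in the dark, and 3.33 ± 0.56 (adjusted p = 0.00208). The highest log2 fold change of any probe set, 6.24, belongs to one with no gene in the annotation used, and 939 of the 1820 calls have no gene or several there. Of the 32 probe sets that rose at least 8-fold, 28 had their lowest red-light signal in replicate 1. The matching share over all tested probe sets was not counted, so this is not read as a trait of the rises.

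The labelled tissue was set beside the few markers tested. For roots, 1 marker gene was tested, EXPA18 (AT1G62980), an expansin of root hairs, with 62.7, 79.4 and 149.7 in red light, against 8.5, 58.4 and 64 in the dark. These signals were low on the scale, and the groups were not called apart (adjusted p = 0.192). A check of the aerial-part label would need more than 1 root gene. Photosystem genes such as LHCB4.2 had clear signal in the red-light arrays, and seed genes such as PAP85 reached 21601, 10988 and 10913 in the dark arrays, beside 177, 209.5 and 234 in red light. Their part in the other falls was not tested.

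The light response of Ler was set beside that of atbzip16. The 2 responses share no array, but they share the estimate of the spread. Residuals of replicate 1 also correlated between the genotypes, at 0.505 in the dark and 0.386 in red light. Of the 1820 probe sets called in Ler, 1803 had the same sign in atbzip16 and 1308 were called in both with the same sign. The matching shares over all tested probe sets were not counted, so these counts describe only the probe sets called in Ler. By limma, the difference between the 2 responses was called for 0 of 15922 probe sets (0%), with a smallest adjusted p of 0.178. An unadjusted p under 0.05 was found for 567 of them, a share below 0.05. With the block there were 54 calls (0.339%), 4 higher and 50 lower in atbzip16 than in Ler, and with replicates 2 and 3 only there were 242 (1.52%), 61 higher and 181 lower. Of the 54, 52 were among the 242. How many were called thus moved with how replicate 1 was handled.

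Most genes named here lay near the line of equal response. Of the 120 plotted, the difference was called with the block for 8, of which 6 fell more in atbzip16 and 2 fell more in Ler. M10 had 14.9, 13.2 and 7.8 in red-light atbzip16, against 5014, 3688 and 3601 in dark atbzip16, and a response of -4.87 in Ler beside -8.46 in atbzip16 (block adjusted p = 0.0157 for the difference). Those red-light signals lay under the low-signal limit of 41.6, so the size of the difference depends on values near the bottom of the scale. ATOEP16-2 had -6.62 in atbzip16 and -3.28 in Ler (block adjusted p = 0.00402), and LEA4-5, BETA-VPE, GRXC1 and AT2G15010 fell further in atbzip16 in the same way (block adjusted p between 0.00113 and 0.0498). TUB1 had -1.90 in atbzip16 and -2.80 in Ler (block adjusted p = 0.0216), and AT4G32460 had -1.92 in atbzip16 and -2.82 in Ler (block adjusted p = 0.0271). For LHCB4.2 the responses were 2.98 in atbzip16 and 2.96 in Ler, with no call for their difference (adjusted p = 1.0, and 0.986 with the block).

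**Figure D5:**
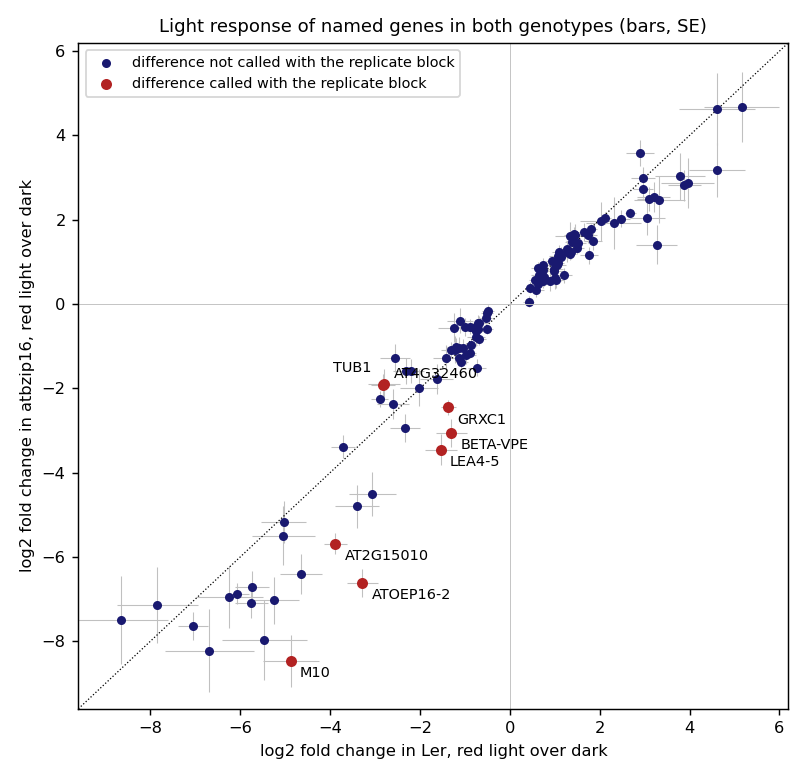
Log2 fold changes of red light over dark in Ler (horizontal) and in atbzip16 (vertical) for the 120 called genes named in the text, with standard errors as bars and a dotted line where the responses are equal. The 8 genes in red are those whose difference was called with the replicate block, such as M10 at -4.87 in Ler and -8.46 in atbzip16. The red-light atbzip16 signals of M10 lay under the low-signal limit.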

How the data were processed

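Total RNA from 12 samples was measured on oligonucleotide arrays with 22810 probe sets. Deposited values are linear intensity per probe set, which the authors made with MAS5, per the submitters' processing notes, and no value is a count, so the number of arrays limits the precision. On the values, the mean of each array without its lowest and highest 2% was 498.9 to 499.8. Groups and replicate numbers came from the titles, which call the replicates biological. For 6 samples the longer description gives the opposite light condition, and it was passed over. No probe set is named for bZIP16, and its level was not analysed here.

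Intensities were log2-transformed with no pseudocount. Left out were the 64 control probe sets and the 30% of the other 22746 with the lowest geometric mean over the 12 arrays (under 41.6), so 15922 were tested. limma 3.58.1 in R 4.3.3 fitted 1 mean for each of the 4 groups (eBayes with a variance trend), with Benjamini-Hochberg adjustment and calls at an adjusted p under 0.05. Mean signals are geometric. Residuals of same-numbered arrays of different groups correlated in all 18 pairs (0.164 to 0.505), 3 of them red-light with dark Ler (0.194 to 0.413). Arrays of different number had -0.386 to 0.248. Dark Ler replicate 2 correlated with red-light Ler replicate 2 at 0.221 and with replicate 3 at 0.203. The residuals thus set replicate 1 apart and do not show that replicates 2 and 3 were paired by number. Replicate number was still used as a block in an alternative fit. Counts and genes are given also from that fit where the lists described change under it, for the plastid-encoded genes as counts with examples. Alternatives were other filters, scalings, a pseudocount of 16, no variance trend, the block, only the Ler arrays, and leaving out arrays. Fits of replicates 2 and 3 only, of the block with other scalings and of an arithmetic-mean filter were added after seeing the data.

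Of 22746 probe sets, the platform annotation used lists 14016, 13513 with 1 gene and 503 with several, and 13436 were updated through a gene table of assembly TAIR10.1, whose descriptions gave the lists. Where a gene had several probe sets, that of highest mean signal stands for it. The comparison, members and lists were chosen with earlier results of these data known. Of 43 lists, 4 had no tested gene, 9 had 1 or 2, and 30 had 3 or more, of which 9 had no call. After the data were seen, 13 false name matches were removed. Named genes were, among called probe sets with 1 gene, the 15 rises and 15 falls whose 95% confidence bound lay farthest from 0, the 8 rises and 8 falls of at least 2-fold with the highest mean signal in red light and in the dark, and up to 6 called members per list and direction, or the 2 with the smallest p. Genes named only from the block or outside the lists were chosen after their values were seen.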

Additional observations from a re-analysis of the deposited data

How the results depend on the processing

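The number of probe sets called in red-light over dark Ler, 1820, stayed within 1.5 times under other filters, scalings, the pseudocount and no variance trend (1530 to 1900). It was 3761 with replicate number as a block (3811 with median centring and 3621 with quantile normalization), 1096 with only the Ler arrays and 3168 with only these and the block, and 4248 with replicates 2 and 3 only (4406 with the block). Leaving out 1 Ler array gave 1056 to 2061, with 1056 without dark replicate 3 and 1079 without dark replicate 2. For the difference between the responses of atbzip16 and Ler, 0 calls became 1 with the pseudocount, 54 with the block (61 with median centring and 68 with quantile normalization), 242 with replicates 2 and 3 only (285 with the block) and 0 to 2 without 1 array (2 where Ler replicate 1 from red light was left out, and 1 where its replicate 3 or atbzip16 replicate 1 from red light was). The cause of these differences was not tested. Of 187 named genes, 120 were called and none of these changed sign. Of the 120, 29 lost the call in some alternative other than leaving out 1 array, and 35 counting those. Among genes not called, HYH turned to -0.00 with the pseudocount, -0.71 with replicates 2 and 3 only (with or without the block) and -0.96 without dark replicate 1, and GI to -0.00 without dark replicate 3 and -0.02 without red-light replicate 1. Over the fits without 1 array HYH ranged from -0.96 to 1.21, GI from -0.02 to 0.38 and XCT from -0.10 to 0.50. The block left every log2 fold change as it was. Arrays limit weak signals most: below the low-signal limit probe sets were not tested, and a fold against a group near it depends on those low values.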

Other observations

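Gene families outside the fixed lists were looked at after their values had been seen, so their counts describe these arrays and support nothing else. Of 7 tested ATG8 genes, whose proteins coat autophagosome membranes, 3 were called higher and none lower in red light, with a median log2 fold change of 0.46. ATG8B (AT4G04620) had signals of 3265, 3811 and 3481 in red light, against 1639, 1278 and 1228 in the dark, with no overlap, and rose by 1.36 ± 0.18 (limma adjusted p = 0.00035). ATG8E rose by 0.74 ± 0.18 (adjusted p = 0.0211) and ATG8F by 0.58 ± 0.17 (adjusted p = 0.0393), and the call of ATG8F ended after quantile normalization. With replicate number as a block ATG8H was also higher (0.46, adjusted p = 0.0101). With 1 array left out, the call of ATG8E ended without red-light replicate 2 or dark replicate 2 or 3 (0.69 to 0.79) and that of ATG8F ended without red-light replicate 2 or 3 or dark replicate 1, 2 or 3 (0.49 to 0.74).

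Both measured subunits of methylcrotonyl-CoA carboxylase, a mitochondrial enzyme of leucine breakdown, were higher in red light. MCCA (AT1G03090) had 14777, 13051 and 13248 in red light, against 9910.2, 7663 and 7739.8 in the dark, and MCCB (AT4G34030) had 19631, 18389 and 15884 in red light, against 13656, 9523 and 9421 in the dark. No dark array reached the lowest red-light array of either. They rose by 0.71 ± 0.14 (adjusted p = 0.00521) and 0.74 ± 0.15 (adjusted p = 0.00704), and both calls ended after quantile normalization. ALDH6B2 (AT2G14170), the methylmalonate-semialdehyde dehydrogenase of valine breakdown, rose by 0.64 ± 0.11 (adjusted p = 0.00245), and ETFQO (AT2G43400), which passes electrons from such breakdown to ubiquinone, by 0.63 ± 0.16 (adjusted p = 0.0267). The call of ALDH6B2 ended after quantile normalization and that of ETFQO with the Ler arrays alone. Among fits without 1 array, the call of ETFQO ended without red-light replicate 1 or 3 or dark replicate 2 or 3 (0.52 to 0.82). AKINBETA1 (AT5G21170), a subunit of the energy-sensing SnRK1 kinase, had 9846, 9401 and 10039.6 in red light, against 6299, 4398 and 4766 in the dark, and rose by 0.94 ± 0.13 (adjusted p = 0.000669). PPDK (AT4G15530), which makes phosphoenolpyruvate from pyruvate, rose by 1.20 ± 0.18 (adjusted p = 0.000778), and ACLA-3 (AT1G09430), a subunit of ATP-citrate lyase, by 0.73 ± 0.15 (adjusted p = 0.00636).

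Of 10 beta-glucosidases, 2 were called higher and 5 lower, with a median of -0.39. BGLU45 (AT1G61810) had 431, 406 and 492 in red light, against 167, 109.9 and 119.5 in the dark, and its neighbour by locus number BGLU46 (AT1G61820) had 2751, 2472 and 2578 in red light, against 1609.7, 1845 and 1632 in the dark. Both were higher in every red-light array, by 1.76 ± 0.20 (adjusted p = 0.000119) and 0.62 ± 0.14 (adjusted p = 0.0113). BGLU19 (AT3G21370) had 203, 74.1 and 48.5 in red light, against 323, 1047 and 1249 in the dark, and a log2 fold change of -3.06 ± 0.52 (adjusted p = 0.00208). Its lowest dark signal, in replicate 1, was above its highest red-light signal, also in replicate 1. Of 7 glycosyl hydrolase 9 genes, a family of endoglucanases, 2 were called lower and none higher. GH9C2 (AT1G64390) had 432, 322 and 271 in red light, against 1174, 2359 and 3007 in the dark, and GH9B13 (AT4G02290) had 157, 337 and 382 in red light, against 1167, 1239.8 and 1343 in the dark, with log2 fold changes of -2.60 ± 0.36 (adjusted p = 0.000551) and -2.20 ± 0.29 (adjusted p = 0.000315).

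Regulators with a symbol but in no list included SNZ (AT2G39250), an AP2-type repressor of flowering, with 77.8, 131 and 157 in red light, against 23.1, 57 and 10 in the dark, and a rise of 2.31 ± 0.61 (adjusted p = 0.0272) that was not called with the Ler arrays alone. ULT1 (AT4G28190), a chromatin regulator of meristems, rose by 1.28 ± 0.24 (adjusted p = 0.00411) and TIC (AT3G22380), a clock regulator outside the list of clock genes, by 0.42 ± 0.12 (adjusted p = 0.0435), a call that ended after quantile normalization. UPB1 (AT2G47270), a bHLH factor that acts on peroxidase genes in roots, had 329, 444 and 319.9 in red light, against 792, 727 and 771 in the dark, and fell by 1.08 ± 0.15 on the log2 scale (adjusted p = 0.000555). ARL (AT2G44080), an ARGOS-like gene of cell expansion, had -0.51 (adjusted p = 0.0229), not called after median centring. PSB27 (AT1G03600), a factor of photosystem II assembly and repair, had 8813, 13894 and 14154 in red light, against 7555, 5239 and 5711 in the dark, and rose by 0.98 ± 0.21 (adjusted p = 0.00883). CHX20 (AT3G53720), a cation/proton exchanger of guard cells, rose by 1.34 ± 0.33 (adjusted p = 0.0188). The call of SNZ ended without red-light replicate 2 or 3 or dark replicate 3 (1.69 to 2.94), that of TIC ended without red-light replicate 1, 2 or 3 or dark replicate 2 or 3 (0.35 to 0.53), that of ARL ended without red-light replicate 2 or 3 or dark replicate 2 or 3 (-0.62 to -0.40) and that of CHX20 ended without red-light replicate 2 or 3 or dark replicate 2 or 3 (1.21 to 1.53).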
